A study of Mus musculus with 249 samples.

Results

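The eosin test supplied 18 of the 249 genome architecture mapping (GAM) libraries analysed here, chosen by library names that begin with EO. All 18 came from unstained sections, and an eosin-stained library was not analysed here. The cells were 46C mouse embryonic stem cells of the 129/Ola strain, a clonal reporter line with GFP at the Sox1 gene that derives from the male line E14tg2a. They had been grown with serum and LIF and moved to serum-free medium before harvest. Sections were 220 nm thick, and 4 profiles were laser microdissected into each cap, not all of which need have held part of a nucleus. Lysis lasted 4 h at 50 °C, the lysates were held overnight at -20 °C, and whole genome amplification used 25 PCR cycles. The other 231 libraries of the same cell line served only as reference. Among them, the frozen late arm of the early freezing test (11 libraries), the unstained arm of the cresyl violet test (10) and the 25 cycle arm (3) carried word for word the same extraction protocol and are called the same-protocol arms. The eosin test and the same-protocol arms belonged to different experiments of the series, so a difference between arms and one between experiments cannot be told apart. As the study describes them, all libraries came from a single biological replicate of the cells, so p-values measure only the spread between these libraries, which may be technical.

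In GAM, a thin slice through a nucleus holds only the stretches of chromosome that the knife passed through, and sequencing lists them. How often a pair of loci turns up in one slice depends on the distance between them, so that co-detection over many slices measures contact. A chromosome occupies its own territory, and a slice can cut through it or miss it. In a multiplexed library several slices are pooled before amplification, and each window is scored positive or negative. The genome was divided into 40 kb windows, 68162 in all, and the file gives a 1 or a 0 for each window and library. Read depth cannot be recovered from such calls and is therefore unknown, so that no error of a single call can be given. The labelled cell type could not be checked against marker expression, since the assay measured DNA.

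The windows positive in all 18 libraries are described first, with the sequence of the one that is a tandem repeat. Apart from the mitochondrial genome, 5 windows were positive throughout. They were chr9:3000001-3040000, chr11:3040001-3080000, chr2:98480001-98520000, chr6:103560001-103600000 and chrX:139880001-139920000 (mm9). The chromosome 9 window holds a row of predicted genes such as Gm10722 and Gm10715. The chromosome 2 window holds the predicted genes Gm10801 and Gm10800. The chromosome 11 window overlaps Sfi1, which encodes a centrosomal protein, and the chromosome 6 window overlaps Chl1, which encodes a neural cell adhesion molecule. No protein-coding gene of the annotation overlaps the X window. These windows were not particular to the eosin test, since they were positive in 223 to 231 of the 231 other libraries.

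The chromosome 9 window repeats itself with a period of 234 bases, and 69.4% of its bases were identical to the base one period downstream. This is the period of the mouse major satellite, the tandem repeat that fills the pericentromeric heterochromatin of mouse chromosomes. A pair of sequences from the mm9 reference shows the unit, 5′ to 3′. The first is chr9:3027538-3027771 on the plus strand, where the copies agreed best, with the 5 bases that differ from the next copy in capitals. The second is the best ungapped match to it in the chromosome 2 window, chr2:98507210-98507443 on the minus strand, with the 13 bases that differ from the first sequence in capitals.
chromosome 9 unit: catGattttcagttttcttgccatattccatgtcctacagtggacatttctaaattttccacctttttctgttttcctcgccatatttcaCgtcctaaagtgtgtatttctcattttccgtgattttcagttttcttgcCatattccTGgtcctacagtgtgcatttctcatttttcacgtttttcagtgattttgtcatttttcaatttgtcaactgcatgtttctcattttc
chromosome 2 match: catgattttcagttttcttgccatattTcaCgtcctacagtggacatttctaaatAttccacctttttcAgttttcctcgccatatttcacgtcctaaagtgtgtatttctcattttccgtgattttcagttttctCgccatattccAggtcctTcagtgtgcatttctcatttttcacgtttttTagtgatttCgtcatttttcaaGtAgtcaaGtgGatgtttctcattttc
The chromosome 2 match was identical to the chromosome 9 unit at 94.4% of bases. In the X, chromosome 6 and chromosome 11 windows the best match reached 42.3%, 43.6% and 41.5%, and the offset of highest identity was not 234 bases in these windows or in the chromosome 2 window. All 14-base words that recur one period on in the chromosome 9 window were then counted in 64131 windows with sequence, on both strands. They made up 66.4% of that window and at least 1% of 6 windows (0.00936% of those counted), a limit set after seeing the values. Of these 6, the chromosome 9 and chromosome 2 windows were positive in all 18 eosin libraries, chr11:3000001-3040000 in 15, chrX:72880001-72920000 in 3, and a pair of Y windows in none. A satellite word content above this limit was therefore seen both in windows positive in all eosin libraries and in windows positive in no eosin library. Of the Y windows, chrY:2680001-2720000 was positive in 13 of 231 other libraries and chrY:2720001-2760000 in none.

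In all, 22 windows were positive in at least 14 of the 18 libraries. Beside those above they included neighbours at the start of chromosome 11 (Sfi1, Drg1 and Eif4enif1) and chr9:35080001-35120000, which overlaps Rpusd4, a mitochondrial RNA pseudouridine synthase, and was positive in 17. Most of the remaining autosomal windows were found in few libraries each. Among the 59863 autosomal windows with less than 50% undetermined bases, the median window was positive in 3 libraries. Only 1.27% were positive in 8 or more, and 4.22% in none. If every window had been equally likely to be found at each library's coverage, 0.799% and 2.55% would fall into these classes. Of the 4429 autosomal windows never positive, 1902 consist mostly of undetermined bases. Of the other 2527, 2220 were positive in at least 1 library outside the eosin test.

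**Figure D1:**
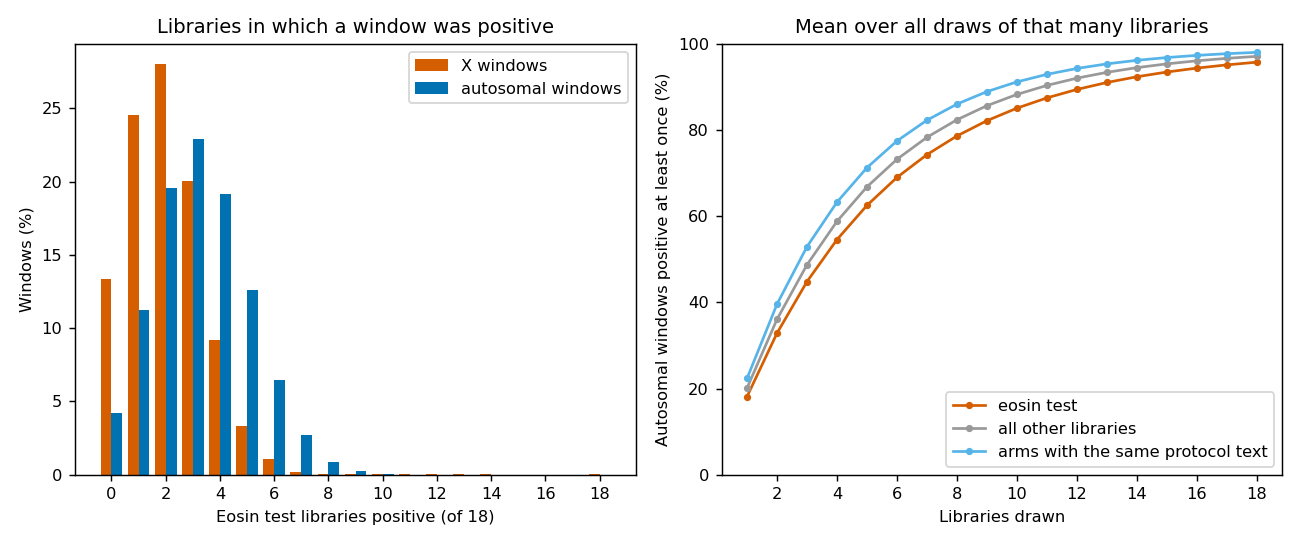
Left, the percent of windows (y axis) positive in each possible number of the 18 eosin libraries (x axis), for autosomal and X windows with less than 50% undetermined bases; autosomal windows centre on 3 libraries and X windows on 2. Right, the percent of autosomal windows positive at least once (y axis) against the number of libraries drawn (x axis), as the mean over all draws; the eosin curve ends at 95.8% and lies below both reference curves.

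The 18 libraries together reached 95.8% of these autosomal windows at least once. The same number of libraries drawn from all other libraries reached 97.1% on average, and drawn from the same-protocol arms 98.1%. A single eosin library held on average 18.2% of these windows, against 20.1% and 22.4%. These are descriptions, with no test, and they move with coverage.

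Coverage, the percent of all listed windows that were positive, was 16.7% ± 6.43 (SD, n = 18) in the eosin test. The lowest library, EOA5, had 5.07%, the median was 16.5% and the highest, EOD5, had 28.1%. The listed windows include 1780 of unplaced contigs, which were negative in all 249 libraries. The neighbour share is the percent of positive windows with a positive window directly beside them. It was 75.9% ± 11.0 (n = 18), from 47.9% in EOA5 through a median of 78.6% to 85.7% in EOH4. A pair of libraries stood apart. In EOA5 52.1% and in EOB6 48.3% of positive windows were isolated, against 14.3% to 32.04% in the other 16, and their neighbour shares were 47.9% and 51.7%. Among the other 231 libraries the neighbour share was 82.1% ± 11.6 and fell as low as 31.3%, so libraries at least as scattered were found elsewhere too. Values without EOA5 and EOB6 are given below for the neighbour share, for coverage and for the chromosome, GC and gene results, and the remaining values include them.

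**Figure D2:**
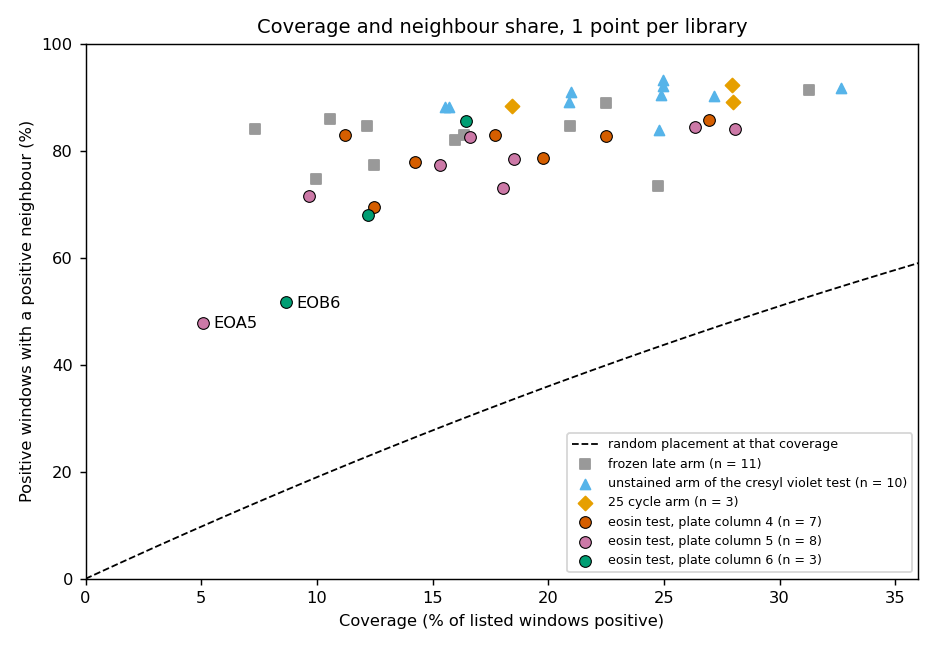
Neighbour share (y axis, percent of positive windows with a positive neighbour) against coverage (x axis, percent of listed windows) for single libraries of the eosin test, coloured by the number that ends the library name (read as the plate column), and of the 3 same-protocol arms; the dashed line gives the share under random placement. EOA5 (47.9%) and EOB6 (51.7%) lie below all other plotted libraries, and every library lies above the line.

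Libraries with higher coverage had higher neighbour shares, a direction that the measure itself fixes. Pearson's r was 0.75 (permutation p = 0.00018, adjusted p = 0.00072) and Spearman's rho 0.74 (permutation p = 0.00072, adjusted p = 0.00288) over the 18 libraries, with p-values adjusted over 4 such relations. Random placement alone gives r = 0.999 on the same coverages, so these p-values, and those of the subsets that follow, do not show a relation beyond the built-in one. Without EOD5 and EOA5, whose coverage lay farthest from the median, r was 0.67 (permutation p = 0.00385) and rho 0.66 (permutation p = 0.00706). Without EOA5 and EOB6, r was 0.64 (permutation p = 0.00785). The number that ends a library name was read as a column of the amplification plate, which the labels do not state. Within column 5, r was 0.83 and rho 0.86 (exact permutation p = 0.00184 and 0.0107, n = 8). Within column 4, r was 0.57 and rho 0.46 (exact permutation p = 0.179 and 0.302, n = 7), and column 6, with 3 libraries, was too small for a value. None of 6 contrasts of coverage, neighbour share and GC difference between plate columns passed the threshold (exact permutation tests, smallest adjusted p = 0.446).

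Against the same-protocol arms, 6 measures were compared in 18 contrasts, and 1 passed an adjusted p of 0.05 (5.56%). The neighbour share was lower in the eosin test than in the unstained arm of the cresyl violet test, 75.9% ± 11.0 (n = 18) against 89.9% ± 2.66 (n = 10). The difference of -14.0 points had an adjusted p of 0.00576 (two-sided permutation test), and 14 of 18 eosin libraries lay below the lowest library of that arm. Without EOA5 and EOB6, an alternative added after seeing the data, it was -10.8 points (adjusted p = 0.00036, permutation test). It did not pass when a neighbour could lie within 2 windows on either side, -7.06 points with an adjusted p of 0.0929 (permutation test). Against the frozen late arm (82.7% ± 5.63, n = 11) and the 25 cycle arm (90.02% ± 2.11, n = 3) the differences were -6.89 and -14.2 points, both with an adjusted p of 0.186 (permutation test, exact for the latter). All 18 eosin libraries lay below the lowest of the 3 libraries of the 25 cycle arm, and 6 below the lowest of the frozen late arm. Leaving out EOA5 and EOB6 gave -3.64 and -10.9 points (adjusted p = 0.326 and 0.0557, permutation tests).

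The contrasts of coverage did not pass. Coverage was 16.8% ± 7.34 in the frozen late arm, 23.3% ± 5.18 in the unstained arm of the cresyl violet test and 24.8% ± 5.50 in the 25 cycle arm. The differences were -0.105, -6.60 and -8.13 points, with adjusted p of 0.990, 0.0929 and 0.186 (permutation tests). The second of these passed when EOH4, EOD5 or EOE5 was left out (adjusted p = 0.0430, 0.0345 and 0.0462). Without EOA5 and EOB6 the differences in coverage were 1.12, -5.38 and -6.91 points, and none passed (adjusted p = 0.983, 0.136 and 0.269, permutation tests). After the share given by random placement at each library's own coverage was subtracted, the neighbour share was 45.7 ± 7.39 points in the eosin test against 52.5 ± 11.5, 49.01 ± 7.38 and 46.8 ± 7.28 points in the arms. These differences ranged from -6.82 to -1.08 points, and none passed (adjusted p from 0.186 to 0.990, permutation tests).

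The runs of adjacent positive windows are given here as values with no test. Longer runs come more easily at higher coverage, and the values were not adjusted for it. Mean coverage was 16.7% in the eosin test. It was 16.8% in the frozen late arm, 23.3% in the unstained arm of the cresyl violet test and 24.8% in the 25 cycle arm. Runs of 10 or more windows held 11.5% ± 7.72 of positive windows in the eosin test, from 0% in EOB6 to 25.4% in EOA6. They held 25.8% ± 9.97 in the frozen late arm, 40.1% ± 8.91 in the unstained arm of the cresyl violet test and 40.6% ± 11.3 in the 25 cycle arm. In all 231 other libraries they held 24.0% ± 13.9, with a lowest value of 0%. Of the 18 eosin libraries, 9 lay below the lowest library of the frozen late arm (11.4%), 17 below that of the cresyl violet test's unstained arm (24.1%) and 18 below that of the 25 cycle arm (31.98%).

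The longest run of each library shows which stretches were found without a gap. The longest of all was chr10:26920001-29720000 in EOE5, 70 windows or 2.80 Mb. It holds 10 protein-coding genes, among them Lama2, a laminin chain of muscle basement membrane, Ptprk, a receptor tyrosine phosphatase, and Rspo3, a secreted activator of Wnt signalling. The next was chr9:40360001-43120000 in EOD5, 69 windows, with Hspa8, a constitutive heat shock chaperone, and Sorl1, a sorting receptor. The third was chr11:88760001-91480000 in EOA6, 68 windows, with Nog, a secreted BMP antagonist, Coil, the scaffold of Cajal bodies, and Trim25, a ubiquitin ligase. In EOH4 the longest run had 45 windows. In EOH5 it was 42 windows at chr8:72200001-73880000, a gene-dense stretch with 68 protein-coding genes. In EOC4 the longest run had 18 windows (chr16:56680001-57400000, with Tfg and Tomm70a). EOA5 and EOB6 again stood at the lower end, with longest runs of 11 windows (chr4:125360001-125800000, with Grik3 and Csf3r) and 9 windows (chr4:132680001-133040000, with Wasf2 and Map3k6). In the other 10 libraries, the longest run spanned 28 to 38 windows.

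These 10 stretches held genes of varied kinds. In EOF4 the 38 windows at chr5:27040001-28560000 hold Dpp6, En2 and Insig1. In EOG5 the 33 windows at chr16:29120001-30440000 hold Opa1, a mitochondrial fusion protein, and Hes1, a Notch target. EOF5 had 32 windows at chr6:99200001-100480000 with Foxp1 and Rybp, and EOC5 32 windows at chr8:98400001-99680000, with Got2 and 1 further protein-coding gene. EOB5 had 31 windows at chr9:15440001-16680000 with Fat3, and EOB4 31 windows at chr7:147440001-148680000, where 67 protein-coding genes include Hras1 and the Ifitm genes. EOE4 had 29 windows at chr14:123320001-124480000 with Nalcn and Fgf14, EOG4 29 at chr16:92680001-93840000 with Runx1, and EOC6 29 at chr3:82720001-83880000 with the fibrinogen genes Fga, Fgb and Fgg. EOD4 had 28 at chr1:4560001-5680000 with Oprk1 and Tcea1. No stretch was the longest in more than 1 library.

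Windows were found together beyond a neighbour's distance too. The co-detection ratio divides the chance that the window at a given distance from a positive window is also positive by the library's autosomal coverage. A value of 1 thus means no excess over that library-wide level. Differences in coverage between chromosomes of a library also raise the ratio, at any distance. In the eosin test it was 3.47 ± 1.00 at 0.04 Mb, 2.54 ± 0.60 at 0.4 Mb, 2.12 ± 0.43 at 1 Mb, 1.55 ± 0.23 at 4 Mb and 1.35 ± 0.16 at 20 Mb (SD, n = 18). At 1 Mb the lowest library had 1.59 and the highest 2.89, so every library lay above 1. The same-protocol arms had 2.40 ± 0.76, 2.06 ± 0.46 and 2.05 ± 0.42 at 1 Mb, and no contrast passed (adjusted p from 0.409 to 0.990, permutation tests). The highest value at 0.04 Mb was that of EOE4, 5.48, followed by EOA5 with 5.40, and the lowest was that of EOD5, 2.24. The ratio cannot exceed 1 divided by the coverage. EOA5 had the lowest coverage of the eosin test and EOD5 the highest, so this order cannot be read apart from coverage.

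**Figure D3:**
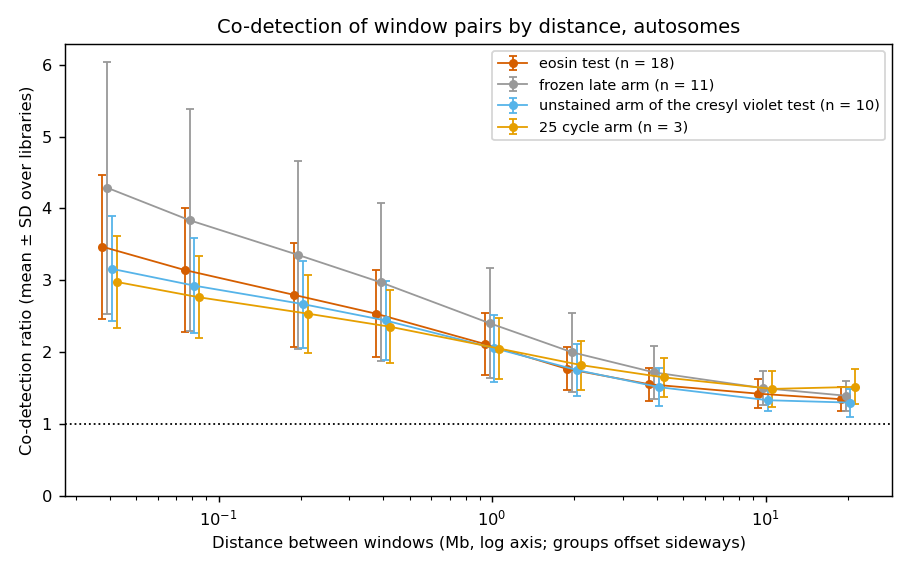
Co-detection ratio over autosomes (y axis, mean with SD over libraries) against the distance between windows in Mb (log x axis) for the eosin test and the 3 same-protocol arms. The dotted line at 1 marks no excess over a library's autosomal coverage. The eosin mean falls from 3.47 at 0.04 Mb to 1.35 at 20 Mb.

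Chromosomes of the same library differed widely. Of the 342 pairs of an eosin library and an autosome, 22 (6.43%) had under 2% of windows positive, against 6.54% in the other libraries. At the other end, 14 pairs had over 40% and 3 over 50%. The last were chromosome 11 in EOH4 (50.7%) and chromosomes 10 and 18 in EOE5 (52.03% and 51.1%). The lowest autosome was chromosome 16 in EOE4 (0.0814%), and chromosome 18 was at 0.0881% in EOB4. Chromosome 10 had the widest spread over libraries, 16.8% ± 14.5, from 0.123% in EOG5 to 52.03% in EOE5. Over autosomes of 1 library the SD was 8.77 points on average, from 3.63 in EOA5 to 12.7.

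**Figure D4:**
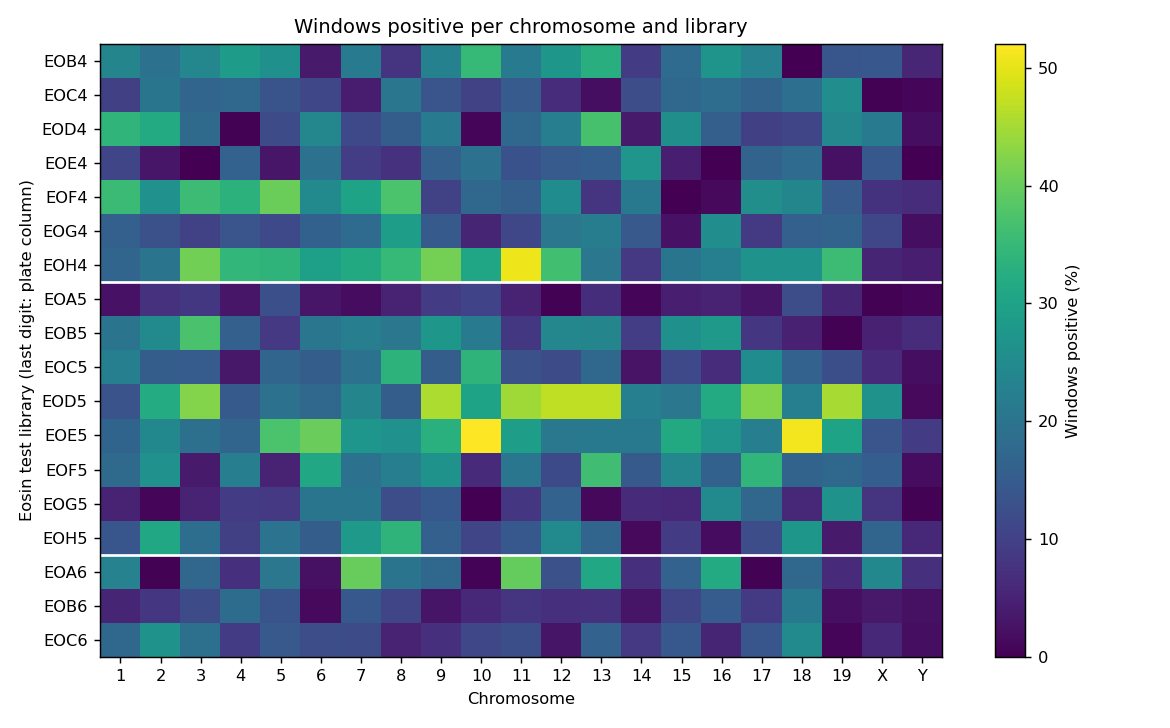
Percent of windows positive (colour) for each chromosome (x axis) in each of the 18 eosin libraries (y axis), with white lines between libraries of different last digits (read as plate columns). Bright cells such as chromosome 11 in EOH4 (50.7%) stand beside dark ones such as chromosome 18 in EOB4 (0.0881%), and the column of chromosome 14 is dark in most libraries.

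Set against the remaining autosomes of the same library, 3 of 21 chromosomes were lower (14.3%) and none higher (sign-flip permutation test over 18 libraries, adjusted p under 0.05). Chromosome 14 was positive at 10.8% ± 7.91 of its windows. EOA5 had 0.831%, the median was 8.91% and EOE4 had 27.1%. In 17 of 18 libraries it lay below the other autosomes, on average by -7.16 ± 8.21 points (adjusted p = 0.0179). No autosome had a higher share of windows found in none of the 18 libraries, 18.9%. Leaving out EOA5 and EOB6 gave -7.33 points (adjusted p = 0.0516). The 5 Mb bins chr14:60000001-65000000 and chr14:65000001-70000000 lay farthest of this chromosome below the libraries' autosomal coverage, by -13.3 ± 9.97 and -12.4 ± 10.9 points. The first holds Gata4, an endoderm and heart transcription factor whose start was positive in 1 library. The stretch at 75000001 to 80000000 was not low, at 2.32 ± 16.4 points.

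The X chromosome, present as a single copy in male cells, was positive at 11.1% ± 7.77 of windows. EOA5 had 0.216%, the median was 9.60% and EOD5 had 26.4%. It lay below the autosomes in 15 of 18 libraries, by -6.47 ± 7.96 points (adjusted p = 0.0179). Without EOA5 and EOB6 the value was -6.59 points with an adjusted p of 0.0516. As a ratio to the other autosomes minus 1, the X chromosome was at -0.37 (adjusted p = 0.0245) and chromosome 14 at -0.37 (adjusted p = 0.0828, sign-flip permutation test). The Y chromosome was positive at 3.34% ± 2.72 of windows, from 0% in EOE4 to 9.05% in EOE5, and was lower than the autosomes in all 18 libraries, by -14.3 ± 5.81 points (adjusted p = 0.00042). Undetermined bases fill most of 82.9% of its windows. Without such windows the Y chromosome was positive at 19.5% and its difference from the autosomes was 1.37 points with an adjusted p of 0.879 (sign-flip permutation test), so its call rests on them. When only windows positive in at least 25 of all libraries were used, no chromosome passed, with chromosome 14 at -7.17 points (adjusted p = 0.0727), the X chromosome at -4.64 and the Y chromosome at 8.19 points.

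None of these differences was shown to be particular to the eosin test. Against all 231 other libraries, 0 of 21 chromosomes passed (0% in either direction, permutation test). At an unadjusted p under 0.05, 0 were higher (0%) and 1 was lower (4.76%), chromosome 14. Its mean was 10.8% ± 7.91 against 17.4% ± 12.8 elsewhere, a difference of -6.63 points with an adjusted p of 0.637. The X chromosome was at 11.1% against 9.95% ± 8.59 elsewhere (adjusted p = 0.759), and the Y chromosome at 3.34% against 2.57% ± 2.95 (adjusted p = 0.759). In the 18 arm contrasts, the X chromosome minus the autosomes was -6.47 points in the eosin test and -5.84, -12.4 and -6.41 points in the arms, and none passed (adjusted p from 0.229 to 0.990, permutation tests).

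Smaller regions were compared in the same way. Of 507 bins of 5 Mb, 0 passed in either direction (0%), and at an unadjusted p under 0.05, 6 were higher (1.18%) and 5 lower (0.986%). The lowest p was that of chr8:15000001-20000000, 12.01 ± 21.3 points above the libraries' autosomal coverage in the eosin test and -0.43 ± 19.5 points elsewhere (unadjusted permutation p = 0.0106, adjusted p = 0.981). This bin includes Csmd1, described below. Of 63543 single windows positive in at least 3 libraries, 0 passed Fisher's exact test in either direction (0%). In the lower direction the test could hardly call a window of usual frequency, so nothing is concluded there. A window in 0 of 18 eosin libraries and 71 of 231 others had an unadjusted p of 0.00238 (Fisher's exact test). At an unadjusted p under 0.05, 824 (1.3%) were more often and 988 (1.55%) less often positive in the eosin test. This balance depends on the test and the reference, since strata of library coverage gave 1061 and 127, and the same-protocol arms alone gave 325 and 1539.

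The windows of lowest p are given as values, since their adjusted p was 1.00 (Fisher's exact test). More often positive were chrX:107360001-107400000 (7 of 18 eosin libraries against 19 of 231 others), chr8:17880001-17920000 (10 against 43), chr7:119080001-119120000 (9 against 35) and chr13:114480001-114520000 (11 against 54), none of which overlaps a protein-coding gene. Less often positive were 4 windows found in no eosin library. The window chr4:132080001-132120000 overlaps Atpif1, the inhibitor of the mitochondrial ATP synthase, Dnajc8 and Ptafr, and was positive in 71 others. The window chr11:77560001-77600000 overlaps Myo18a and Gm10277 (68 others). The window chr6:86600001-86640000 overlaps Mxd1, a repressor of the Myc network, and the splicing gene Snrnp27 (69 others), and chr4:123680001-123720000 overlaps no protein-coding gene (69 others). A count of 0 of 18 allows a share of up to 16.7% by the rule of 3 counts and has an exact 95% binomial upper limit of 18.5%, both for counting error only.

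Positive windows were richer in GC bases and in genes. Mean GC content was higher in positive than in negative autosomal windows by 0.49 ± 0.45 points (n = 18, sign-flip permutation p = 0.00034), in 14 of 18 libraries, from -0.30 in EOD4 to 1.57 in EOA5. Sorted by GC content into 10 classes of equal size, the windows were positive at 15.3% ± 6.71 in the lowest class (mean GC 36.2%) and at 20.3% ± 7.48 in the highest (49.9%). Protein-coding genes overlapped positive windows more often than negative ones by 6.17 ± 3.42 points (sign-flip permutation p = 3.0e-05), in 17 of 18 libraries, from -0.09 in EOB5 to 15.2 in EOA5. Without EOA5 and EOB6 these differences were 0.42 (p = 0.00127) and 5.75 points (p = 9.0e-05, sign-flip permutation tests). The other 231 libraries had 0.43 ± 0.41 and 5.51 ± 2.91 points. The gene comparison kept autosomal windows made mostly of undetermined bases. Of these, 1902 were positive in no eosin library and so always stood on the negative side. Their part in the gene difference was not tested. The GC difference of the same-protocol arms was 0.22 ± 0.35, 0.32 ± 0.49 and 0.46 ± 0.29 points, and no contrast passed (adjusted p from 0.229 to 0.990, permutation tests). Their gene difference was 3.67 ± 2.24, 5.43 ± 2.73 and 6.49 ± 1.07 points and was not tested against the eosin test.

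Single loci were followed by the window that holds the gene's start. Of 48 listed genes, 46 matched the annotation. Housekeeping genes were positive in a median of 5 of 18 libraries (12 genes, 1 to 7), pluripotency factors in 4 (11 of 12 genes, 0 to 8), developmental regulators in 2 (11 of 12 genes, 1 to 7) and X-linked genes in 3 (12 genes, 0 to 5). Over all autosomal windows with sequence the median was 3, and over X windows 2. With 18 libraries a single locus is known only coarsely. A count of 8 of 18 has an exact 95% binomial interval from 21.5% to 69.2%, and a count of 2 of 18 one from 1.38% to 34.7%.

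Among the pluripotency factors, Klf2 was positive most often, in 8 libraries (EOD4, EOG4, EOH4, EOA5, EOC5, EOF5, EOG5 and EOH5). Its relative Klf4, like Klf2 a zinc finger factor of the naive state, was positive in none, while 23.8% of other libraries held it. Sox2, a core factor of the network, was positive in 6 (EOC4, EOF4, EOG4, EOA5, EOB5 and EOD5), and Nanog, another, in 6 (EOD4, EOF4, EOB5, EOE5, EOF5 and EOH5). Pou5f1, which encodes Oct4, was positive only in EOF4 and EOH4. Prdm14, a repressor that guards pluripotency, was positive in 5, Esrrb, an orphan nuclear receptor, in 4, and Lin28a, an RNA-binding protein, in 4. Dppa3, which lies close to Nanog on chromosome 6, was positive in 3, of which EOE5 and EOF5 also held Nanog. Tbx3 was positive in 3 and Zfp42 in 2. Of the 43 detections, 35 had a positive neighbouring window. The count was 46 of 57 for the housekeeping genes and 27 of 33 for the X-linked genes. Over all positive windows the neighbour share was 75.9% on average over the eosin libraries.

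The developmental regulators are genes kept silent in stem cells by Polycomb until a lineage is chosen. The cartilage and sex determination factor Sox9 was positive in 7 libraries and Hoxd9, from the Hoxd cluster, in 6. Hoxa9 was positive in 3, and Hoxb4 and Hoxc8 in 2 each. The libraries with Hoxb4 were EOC5 and EOE5 and those with Hoxc8 were EOG5 and EOA6, so no library held all of these Hox starts. The endoderm factor Foxa2 and the oligodendrocyte factor Olig2 were positive in 3 each. Pax6 and Shh, regulators of eye and limb patterning, and the mesoderm factor T were positive in 2 each, and Gata4 in 1. Of the 33 detections, 28 had a positive neighbour, where the mean neighbour share over all positive windows was 75.9%. In other libraries the median gene of this list was positive in 20.3%, against 24.2% for pluripotency factors, 25.1% for housekeeping genes and 19.9% for all autosomal windows with sequence.

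Of the housekeeping genes, Tfrc, the transferrin receptor, was positive in 7 libraries. Gapdh, a glycolytic enzyme, and Sdha, a subunit of succinate dehydrogenase, were positive in 6 each. Actb, Eef1a1, Rpl13a and Polr2a were positive in 5 each, Pgam1 in 4, Ppia and Tbp in 3 each, and Rplp0, a ribosomal protein gene, only in EOH4.

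On the X chromosome, Huwe1, a ubiquitin ligase, and Kdm6a, a histone demethylase, were positive in 5 libraries each, Rlim, an activator of Xist, and Nr0b1 in 4 each, and Zfx, Atrx and Pgk1 in 3 each. Xist, the RNA that silences an X chromosome in females, was positive in EOB4 and EOG4, and the start of Dmd, the dystrophin gene, in EOE4. Fmr1 was positive in none, against 13.9% of other libraries. Hprt, which encodes a purine salvage enzyme, was positive in none as well, and in only 10 of 231 others (4.33%). E14tg2a, from which 46C cells derive, was isolated as an Hprt-deficient line, whose part in this count was not tested. The low window was chrX:50320001-50360000, which holds the start of the gene. The following window, chrX:50360001-50400000, which holds its 3′ part, was positive in 2 eosin libraries and 32 others (13.9%), and the preceding one in 1 and 31 (13.4%). The other 5 windows inspected around the gene were positive in 1 to 4 eosin libraries and 12.6% to 16.0% of others. The windows around Hprt were looked at after its count was seen.

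Long genes show how much of one gene model was positive in a library, which pools the profiles of a cap. The 10 longest autosomal protein-coding gene models of the annotation span 41 to 112 windows, and none was positive over its full length in any of the 18 libraries. Csmd1, a complement-regulating membrane protein, came closest, with 90.5% of its 42 windows in EOA6. In the same library Dlg2, a synaptic scaffold, reached 83.7% of 49 windows, and in EOD5 Fhit, a gene at a fragile site, reached 82.9% of 41. Means over libraries were 25.1% ± 28.96 for Csmd1, 17.7% ± 23.8 for Dlg2 and 20.1% ± 24.4 for Fhit. In other libraries they were 14.6%, 16.2% and 17.6%. Lrp1b, a large endocytic receptor, was at 24.6% ± 25.0 with 71.2% in EOD4, against 17.2% in other libraries. Macrod2 was at 14.7% ± 18.3, Nrxn3, a synaptic adhesion protein, at 16.4% ± 16.98 and Cntnap2 at 13.2% ± 15.2, against 18.4%, 18.2% and 17.5% in other libraries. Ptprd, a receptor phosphatase of neurons, was lowest, at 10.4% ± 14.7 against 15.4% in other libraries, and had no positive window in 8 libraries. The longest models, Gm20388 (112 windows, 27.1% ± 18.9) and Fgfr2 (76 windows, 18.8% ± 18.3), are drawn by this annotation over 4.43 and 3.01 Mb, which includes neighbouring genes. Their means in other libraries were 22.2% and 20.2%. These means were not tested between groups.

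**Figure D5:**
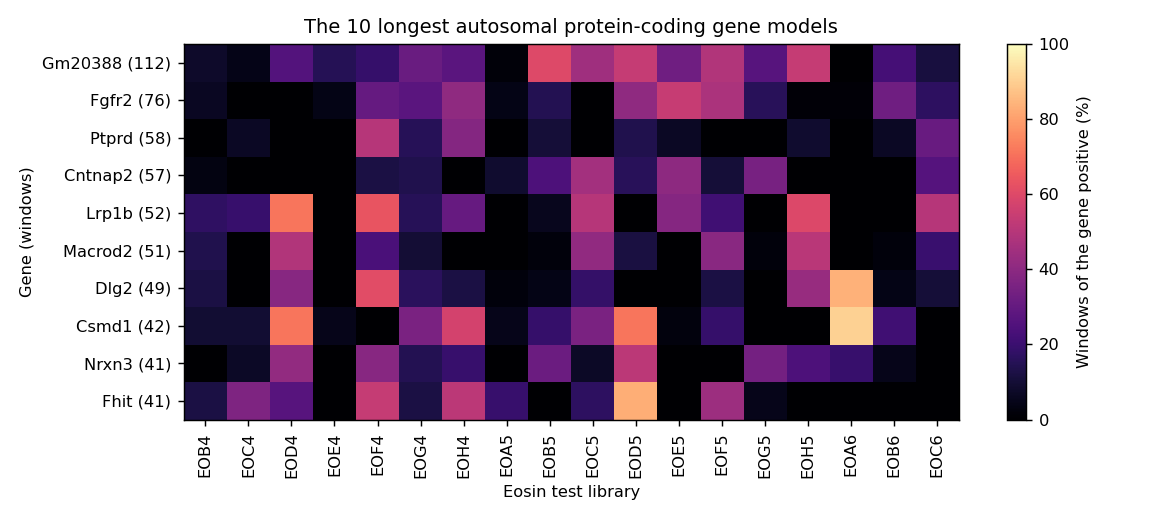
Percent of a gene's windows that were positive (colour) for the 10 longest autosomal protein-coding gene models (y axis, with the number of windows) in each eosin library (x axis). Csmd1 in EOA6 (90.5%) is the brightest cell, and no cell reaches 100%.

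The pairwise likeness of libraries was near 0 on the phi scale, where 0 is the sharing that their coverages alone would give. Over the 153 pairs of eosin libraries, the phi coefficient of autosomal calls ran from -0.025 to 0.067 with a median of 0.0167, and 26 pairs were below 0. With the other 231 libraries the median was 0.0164. The most alike pair was EOH4 and EOH5. Pairs of the same plate column had a mean phi of 0.0171 and pairs of different columns 0.0178, a difference of -0.0007 (permutation p = 0.817, 52 and 101 pairs). Across windows, the count of positive eosin libraries and the percent of positive other libraries had a Pearson's r of 0.34 over 59863 windows, which share base composition and mappability and are not independent. No pair among all 249 libraries had identical calls.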

How the data were processed

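Multiplex-GAM libraries were analysed from 1 deposited table of detection calls, and the sequencing reads were not used here. Per the labels and methods, the authors aligned reads to mm9 with Bowtie2 (2.1 in the submitters' processing notes), removed duplicates, scored 40 kb windows positive with GAMtools at a fixed threshold of 4 reads and kept libraries that passed quality control. The other unit deposited by the authors is thus a 1 or a 0 per window and library; depth is unknown from this table, and a window near the threshold can be lost or gained. GC content and genes came from the NCBIM37 genome and GENCODE vM1, whose 22 chromosome lengths equal those of the table. Groups were taken from the labels. Differences of means were tested by two-sided permutation (100000 resamples, exact where a group held fewer than 10), chromosomes within the arm by sign-flip permutation, and windows by Fisher's exact test, with Benjamini-Hochberg adjustment at 0.05, in Python 3.11.15 with NumPy 2.4.6 and SciPy 1.17.1. Bins needed 63 windows positive in some library. Named windows and genes were those positive in all 18 libraries, the 4 of lowest p in each direction, the longest run of each library, listed loci and the 10 longest genes. Members and lists were chosen with earlier results of these data known. The tests were checked on simulated data, where single windows set to negative were checked only at an unadjusted p. Alternatives were other filters, scales, summaries, bins and references and leaving out each library in turn. Some listed genes and the position of 1 run are not reported here.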

Additional observations from a re-analysis of the deposited data

How the results depend on the processing

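Of 608 values recomputed under alternatives, 588 were classed as unchanged. That class kept its side of the threshold. It could hold a change of sign where neither value passed, or a modest change of a count. Coverage against the frozen late arm, for example, ran from -0.776 to 0.576 points when 1 eosin library was left out. Leaving out 1 eosin library changed 3 of 450 calls. These were the lower coverage against the unstained arm of the cresyl violet test, which ranged from -7.27 to -5.92 points and passed without EOH4, EOD5 or EOE5. The lower neighbour share against that arm did not pass when a neighbour could lie within 2 windows, at -7.06 points. The count of chromosomes lower than the other autosomes went from 3 to 0 with windows positive in at least 25 libraries, and to 1 without EOA5 and EOB6. The Y chromosome turned to 8.19 points with that window filter and to 1.37 points without mostly undetermined windows. Against the same-protocol arms alone, 325 windows were more often and 1539 less often positive at an unadjusted p under 0.05. Against all other libraries with strata of library coverage, the counts were 1061 more often and 127 less often, where the unstratified test gave 824 and 988. No window passed after adjustment in either. The cause of these changes was not tested. No paired analysis was possible because the replicate numbers only name libraries in order and carry no pairing. Unknown read depth limits all calls, and 18 libraries limit single loci.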
